A study of Mus musculus with 25 samples.

Results

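Bile acid synthesis and transport were followed in whole mouse liver through 10 genes: Cyp7a1, Cyp8b1 and Cyp27a1 (synthesis), Baat and Slc27a5 (conjugation), Slc10a1 and Slco1b2 (uptake), Abcb11 (export), and Nr1h4 and Nr0b2 (receptors). All 10 were on the array, with 18 probe sets that were annotated to a single one of these symbols, among 45101 probe sets in all and 18194 genes measured. Where a gene had several probe sets, the brightest of them on average stood for it. The postnatal pools were those of the day of birth (Day0), Day3, Day7, Day14, Day21 and adult liver at 18 weeks, and the fetal pools were taken daily from embryonic day 11.5 (E11.5) to embryonic day 18.5 (E18.5). All were C57/B6 mice, described in the labels as random-bred and with no treatment named, and the sex of the animals is not given in the sources used here. Each stage was 1 pool of livers: 12 livers were pooled for E11.5, 9 for each of E12.5 and E13.5, 6 for E14.5 as well as for E15.5, and 3 for every stage after that. At 11 stages the RNA was put on 2 arrays as technical repeats, and E18.5, Day7 and Day14 had 1 array, 25 arrays in all.

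Hepatocytes make bile acids from cholesterol. A classic route starts with Cyp7a1 and an alternative route with Cyp27a1, and the products are joined to taurine or glycine before they are pumped into bile. Bile acids that return from the gut through the portal blood are taken up again by carriers on the sinusoidal side of the hepatocyte. They also act as ligands of the nuclear receptor FXR, encoded by Nr1h4, which induces the repressor SHP, encoded by Nr0b2, and restrains synthesis.

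Levels are log2 of the deposited array intensities, so that 1 unit is a factor of 2, and levels of different genes are not set against each other. Array medians were 5.41 to 5.53, and across genes the correlation between repeat arrays was r = 0.986 to 0.996. The mean of 10 hepatocyte markers stood at 10.5 at E11.5, 10.7 at E14.5, 12.2 at E15.5, 13.2 at E18.5, then 13.1 in adult liver, and albumin (Alb) was high from the start, at 12.73 at E11.5 and 14.06 in the adult pool. The mean of 12 erythroid markers stood at 9.04 at E11.5, 10.8 at E15.5, 9.70 at Day0, 7.49 at Day7 and 6.22 in the adult pool. In such bulk samples fewer hepatocytes and less RNA per hepatocyte cannot be told apart. The E18.5 pool stood apart in 7 skeletal muscle markers, whose mean was 7.24 there and 5.05 to 5.57 in the other 13 pools, with Acta1 (skeletal actin) at 9.56. The bile duct list (6 markers) ranged from 6.04 to 6.62 and the intestine list (7 markers) from 4.90 to 5.90, and the part of these cells in the results below was not tested.

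The promoters of 4 of the genes are shown because they hold short motifs of factors known from bile acid biology, and because these genes had different courses. Each run is the 300 bases from 250 before to 50 after the start site annotated by RefSeq on GRCm38.p6, written 5′ to 3′ on the strand of the gene, with the matched motifs in capitals.
Cyp8b1, chr9:121916256-121916555, minus strand: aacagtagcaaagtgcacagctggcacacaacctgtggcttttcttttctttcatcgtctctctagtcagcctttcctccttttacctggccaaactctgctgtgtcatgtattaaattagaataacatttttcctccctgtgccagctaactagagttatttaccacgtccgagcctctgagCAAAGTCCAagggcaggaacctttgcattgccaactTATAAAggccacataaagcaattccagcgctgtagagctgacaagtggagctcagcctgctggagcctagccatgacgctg
Slco1b2, chr6:141629268-141629567, plus strand: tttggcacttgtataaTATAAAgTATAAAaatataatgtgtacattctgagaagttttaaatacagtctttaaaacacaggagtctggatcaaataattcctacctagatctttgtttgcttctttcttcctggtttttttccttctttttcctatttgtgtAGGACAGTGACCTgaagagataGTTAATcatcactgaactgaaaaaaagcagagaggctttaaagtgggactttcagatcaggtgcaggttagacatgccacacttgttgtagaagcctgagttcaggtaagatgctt
Abcb11, chr2:69342567-69342866, minus strand: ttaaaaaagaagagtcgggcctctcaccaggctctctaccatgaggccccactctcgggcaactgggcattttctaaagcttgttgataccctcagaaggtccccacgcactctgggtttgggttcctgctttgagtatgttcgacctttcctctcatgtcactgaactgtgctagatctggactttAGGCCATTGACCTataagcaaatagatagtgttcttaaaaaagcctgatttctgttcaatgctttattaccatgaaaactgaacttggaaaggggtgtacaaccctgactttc
Nr0b2, chr4:133553126-133553425, plus strand: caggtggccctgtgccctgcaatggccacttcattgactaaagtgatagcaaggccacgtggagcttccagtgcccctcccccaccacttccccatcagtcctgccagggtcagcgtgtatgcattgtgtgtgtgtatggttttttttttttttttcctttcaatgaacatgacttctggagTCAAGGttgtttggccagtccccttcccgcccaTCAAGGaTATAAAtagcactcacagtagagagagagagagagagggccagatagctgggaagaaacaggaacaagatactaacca
Windows were found for 7 of the 10 genes and searched on both strands for 5 motifs. The first was AGGTCANTGACCT, an inverted repeat of the kind bound by FXR with its partner RXR, with up to 1 mismatch. It matched at -63 from the start site in Abcb11 and at -88 in Slco1b2, each with 1 mismatch, and 27 of the 32851 RefSeq promoter windows of the same length held a match (0.0822%). CAAAGTCCA, an element bound by HNF4, matched at -67 in Cyp8b1 and in 0.475% of all windows. TCAAGG, part of the element bound by LRH-1, matched at -68 and -35 in Nr0b2 and in 14.4% of all windows. GTTAAT, the half-site of HNF1, matched at -66 in Slco1b2 and at -40 in Nr1h4 and in 7.10% of all windows. TATAAA was found in Cyp8b1, 1 of 2 windows of Slc10a1, Slco1b2 and Nr0b2 and in 13.6% of all windows. The window of Cyp27a1 held no match to these letters. A match is a stretch of letters in a reference sequence, and binding was not measured.

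The levels of all 10 genes by stage gave an order of appearance. Slc10a1 was the only one of the 10 to pass the midpoint of its own range at E17.5. At E18.5, a stage with 1 array, it was joined by Cyp7a1, Cyp8b1, Cyp27a1, Slc27a5, Slco1b2, Abcb11 and Nr1h4, while Nr0b2 passed its midpoint at Day3 and Baat at Day14. These are first crossings. Cyp7a1 (midpoint 8.46) and Cyp27a1 (8.71) were below their midpoints again at Day3, and stayed past them from Day7 and Day14. The range between the lowest and highest stage mean was 153-fold for Slco1b2, 148-fold for Slc27a5 and 134-fold for Slc10a1, but 5.52-fold for Nr0b2 and 4.13-fold for Baat. These folds are those of the probe set used. For Baat that set ran from 6.28 to 8.32 and the other set from 4.67 to 9.97. The lowest means of Slco1b2 (4.40), Slc27a5 (5.21) and Slc10a1 (5.43) lay within or under the array medians of 5.41 to 5.53. The part of background signal in these folds was not tested. The highest stage was Day7 for Cyp8b1, Slco1b2 and Nr1h4, Day14 for Nr0b2, Day21 for Cyp7a1, Slc27a5, Slc10a1 and Abcb11, and the adult pool for Cyp27a1 and Baat. When the 14 stages of a gene were put in order of level, 2 to 5 of the 13 neighbouring places were separated by more than 2 standard errors of the difference between technical repeats. Most neighbours in these orders therefore did not differ beyond that spread, and the 7 highest stages of Slc10a1, all those from E18.5 on, formed 1 block without a separated place.

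**Figure D1:**
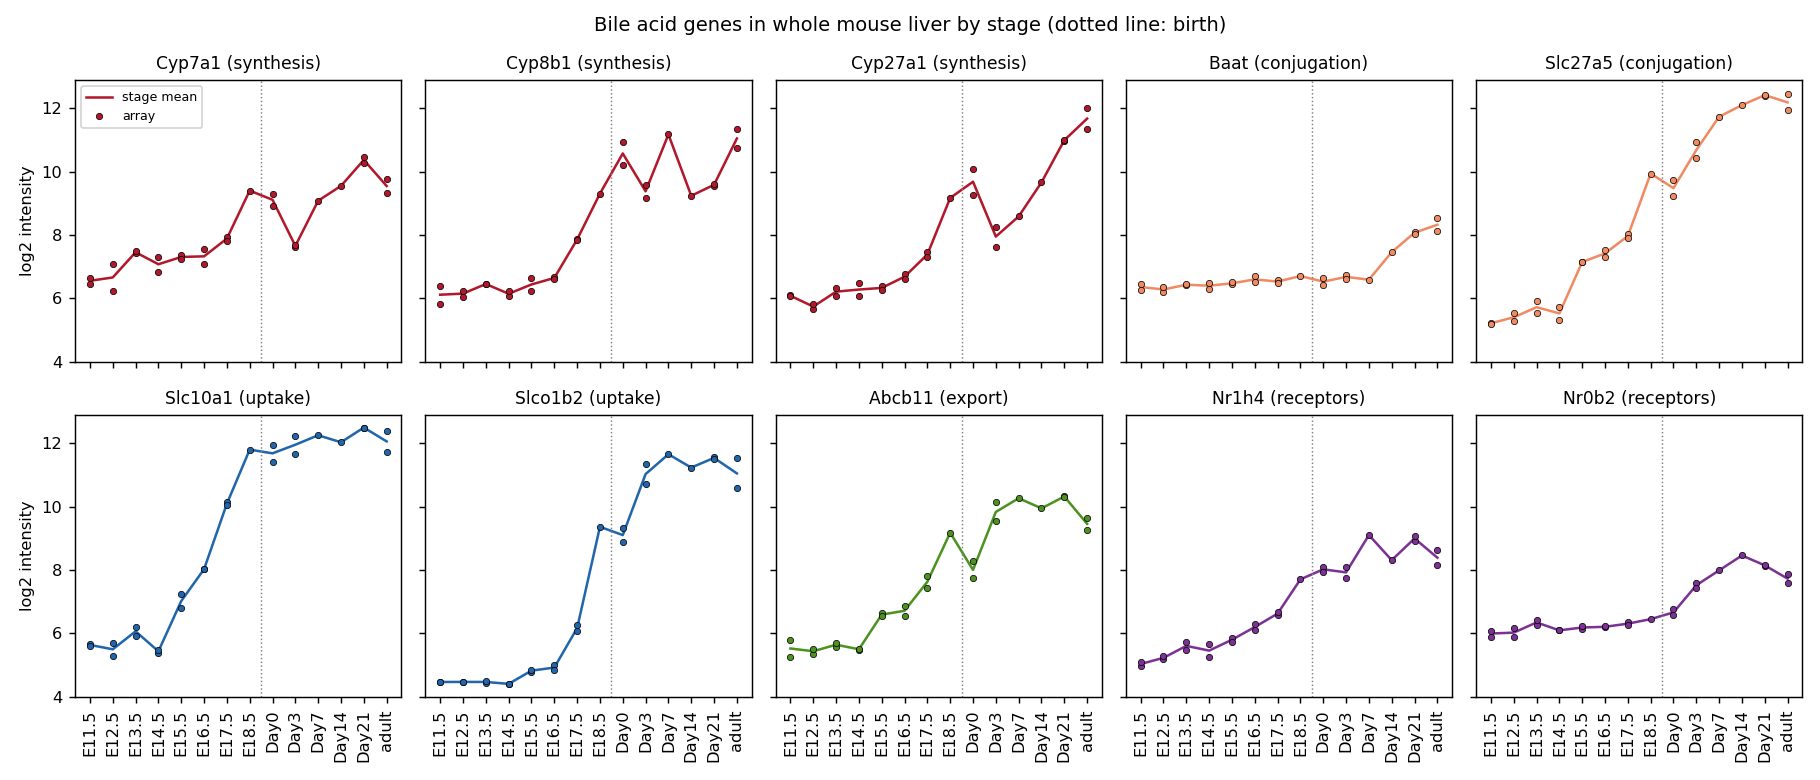
Level of each of the 10 genes (log2 intensity, vertical axis) at the 14 stages (horizontal axis, in order of age); points are single arrays and the line joins the stage means. Slc10a1 climbs between E14.5 and E18.5, whereas Baat stays at 6.28 to 6.70 and Nr0b2 at 5.99 to 6.45 through fetal life, and Cyp7a1 and Cyp27a1 dip at Day3.

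Cyp7a1 encodes cholesterol 7-alpha-hydroxylase, the rate-limiting enzyme of the classic route. Its mean lay between 6.55 and 7.45 from E11.5 to E16.5, at 7.89 at E17.5 and at 9.40 at E18.5. After birth it was 9.30 and 8.93 on the 2 Day0 arrays, 7.63 and 7.68 at Day3, 9.08 at Day7, 9.55 at Day14, 10.29 and 10.45 at Day21, and 9.31 and 9.78 in the adult pool. E18.5 stood with the postnatal pools, and Day3 stood below E17.5 and above all earlier stages. The place of Day21 above Day14 (gap 0.82) and of Day7 above E17.5 (gap 1.20) were the separated ones in its order. The place of Day21 was that of the probe set used, since a second, dimmer set was at 8.20 at Day21, 8.59 at Day14 and 8.75 in the adult pool, its highest stage.

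Cyp8b1 encodes the sterol 12-alpha-hydroxylase that directs synthesis toward cholic acid. It was between 6.11 and 6.64 up to E16.5, 7.87 and 7.84 on the E17.5 arrays, and 9.31 at E18.5. It then stood at 10.93 and 10.22 at Day0, 9.58 and 9.18 at Day3, 11.18 at Day7, 9.24 at Day14, 9.55 and 9.62 at Day21, and 10.74 and 11.35 in the adult pool. Its postnatal levels thus alternated, with Day0, Day7 and the adult pool high and Day3, Day14 and Day21 low. Day14 lay next to E18.5 in its order, with a gap of 0.07.

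Cyp27a1 encodes the mitochondrial sterol 27-hydroxylase, which starts the alternative route and also oxidises the side chain in the classic one. It was between 5.74 and 6.68 up to E16.5, 7.38 at E17.5 and 9.17 at E18.5. The arrays after birth gave 10.10 and 9.26 at Day0, 8.26 and 7.63 at Day3, 8.59 at Day7, 9.66 at Day14, 10.98 and 11.00 at Day21, and 11.36 and 12.00 in the adult pool. The adult pool was above Day21 (gap 0.68) and Day21 above Day0 (gap 1.31), both separated. The low point at Day3 lay below the single E18.5 array.

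Baat and Slc27a5 act in sequence, Slc27a5 (bile acyl-CoA synthetase) activating bile acids and Baat joining them to the amino acid. Baat was between 6.28 and 6.70 in all 8 fetal pools and at 6.53, 6.68 and 6.59 at Day0, Day3 and Day7. It stood at 7.46 at Day14, 8.10 and 8.04 on the Day21 arrays and 8.12 and 8.52 in the adult pool, so its 3 highest stages were the 3 oldest. Slc27a5 was between 5.21 and 5.72 up to E14.5, and the E15.5 arrays gave 7.15 and 7.14. Its later means were 7.42 at E16.5, 7.97 at E17.5, 9.94 at E18.5, 9.48 at Day0, 10.69 at Day3, 11.74 at Day7, 12.10 at Day14, 12.42 at Day21 and 12.19 in the adult pool. The partners thus differed in timing on these probe sets, with Slc27a5 past its midpoint at E18.5 and Baat past its own at Day14.

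Slc10a1 encodes NTCP, the sodium-dependent carrier that takes conjugated bile acids from the blood, and Slco1b2 encodes a sodium-independent organic anion carrier of the same membrane. Slc10a1 was between 5.43 and 6.06 up to E14.5, 6.79 and 7.24 on the E15.5 arrays, 8.01 and 8.03 at E16.5, 10.13 and 10.06 at E17.5, and 11.80 at E18.5. From Day0 to adult liver its means stayed between 11.68 and 12.50. Slco1b2 was between 4.40 and 4.46 up to E14.5, at 4.82 at E15.5, 4.92 at E16.5, 6.25 and 6.07 at E17.5, and 9.36 at E18.5. After birth it was 9.33 and 8.88 at Day0, 11.35 and 10.71 at Day3, 11.65 at Day7, 11.23 at Day14, 11.54 at Day21, and 10.58 and 11.52 in the adult pool. The adult repeats of Slco1b2 differed by 0.95, the widest gap between repeat arrays among the 10 genes.

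Abcb11 encodes BSEP, the pump that exports bile salts across the canalicular membrane into bile. It was between 5.43 and 5.64 up to E14.5 and then 6.59 at E15.5, 6.71 at E16.5, 7.63 at E17.5 and 9.17 at E18.5. It was 8.27 and 7.73 at Day0, 10.13 and 9.53 at Day3, 10.26 at Day7, 9.95 at Day14, 10.32 at Day21, and 9.27 and 9.65 in the adult pool. Both Day0 arrays were below E18.5 and below all other postnatal arrays. E18.5 was separated from Day0 in its order (gap 1.17).

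Nr1h4 stood at 5.03 to 5.60 up to E14.5, 5.80 at E15.5, 6.20 at E16.5, 6.62 at E17.5, 7.70 at E18.5, 8.02 at Day0, 7.92 at Day3, 9.10 at Day7, 8.31 at Day14, 8.99 at Day21 and 8.39 in the adult pool. Nr0b2 stayed at 5.99 to 6.45 through all fetal pools. It was 6.56 and 6.76 on the Day0 arrays, 7.59 and 7.44 at Day3, 7.99 at Day7, 8.46 at Day14, 8.14 at Day21 and 7.72 in the adult pool. Both genes had their 6 highest stage means after birth. The receptor had already climbed by E18.5, and the repressor it is known to induce had not.

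**Figure D2:**
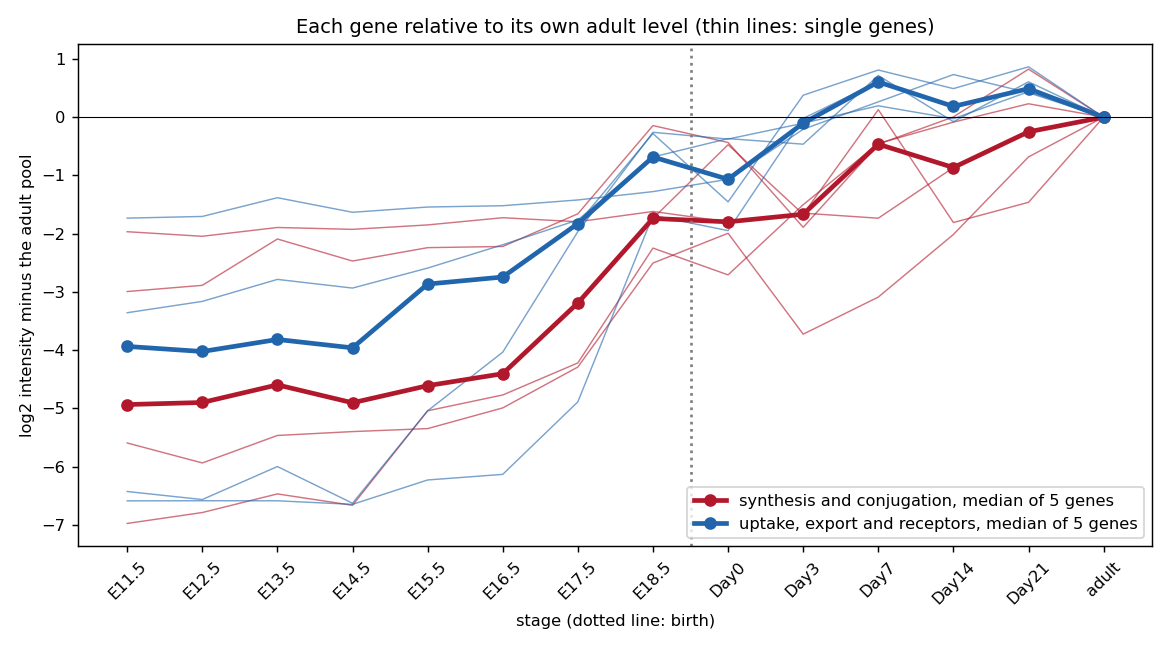
Difference of each stage mean from the adult pool (log2 units, vertical axis) along the 14 stages (horizontal axis), with synthesis and conjugation genes and uptake, export and receptor genes drawn apart. At Day3 the 5 synthesis and conjugation genes lie between -3.73 and -1.50, and the other 5 lie between -0.46 and 0.38.

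Synthesis and conjugation were set against uptake, export and receptors by the distance of each gene from its own adult level. This compares differences, not levels, between genes, and it rests on the adult pool as the common reference. At E18.5 the median difference was -1.74 for the 5 synthesis and conjugation genes and -0.68 for the other 5, and at Day0 it was -1.80 and -1.07. The 3 synthesis genes taken alone had a median of -0.47 at Day0, nearer to 0 than those of uptake (-1.16), export (-1.45) and receptors (-0.72), and the pair of conjugation genes had -2.25. The number of genes within 1 log2 unit of the adult pool was 1 of 5 and 3 of 5 at E18.5 (88.2% of all genes) and 2 of 5 on both sides at Day0 (89.1%). At Day3 it was -1.67 (-3.73 to -1.50) for synthesis and conjugation and -0.10 (-0.46 to 0.38) for uptake, export and receptors, 2 ranges that did not overlap. In percent of the adult intensity, Day3 livers had 7.55% for Cyp27a1, 27.0% for Cyp7a1, 31.5% for Cyp8b1, 31.9% for Baat and 35.3% for Slc27a5. On the other side stood 72.5% for Nr1h4, 86.6% for Nr0b2, 93.0% for Slc10a1, 98.5% for Slco1b2 and 130% for Abcb11. Thus 0 of 5 synthesis and conjugation genes and 5 of 5 of the others were within 1 log2 unit of the adult pool at Day3. Of all genes 91.2% were within that distance, and of the 912 genes called higher after birth 67.3% were. At Day7 the counts were 3 of 5 and 5 of 5 (90.3% of all genes), with Cyp27a1 at -3.09 and Baat at -1.74 still further away. Set against Day21 in place of the adult pool, the Day3 differences were -1.73 (-3.04 to -0.20) for synthesis and conjugation and -0.54 (-1.07 to -0.49) for the others, and the ranges overlapped through Cyp8b1. All these distances are those of the probe set used for each gene, and their size depended on the set. At Day3 and in the adult pool the other set of Baat was at 5.85 and 9.97, and that of Cyp7a1 at 5.51 and 8.75. One other set of Slco1b2 was at 9.53 and 10.52, and the further set of Slc10a1 at 11.39 and 11.61. This contrast is that of the 10 genes and not of bile acid synthesis at large. Among other genes listed for synthesis, some were near their adult level at Day3. Hsd3b7 stood at 11.37 at Day3 and 10.91 in the adult pool, Amacr at 9.77 and 9.81, and Slc27a2 at 12.35 and 12.57. Others were further away, such as Akr1c14 at 9.43 and 10.99 and Cyp7b1 at 4.64 and 10.41. Genes are not replicates, and the difference between the 2 groups of 5 genes was not tested.

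Postnatal pools were set against fetal pools to ask which of the genes differ on balance across birth. Of the 10 genes 9 were called higher in the postnatal pools and 0 lower, where 5.01% of all genes were called higher and 4.5% lower. A call means an adjusted p under 0.05 by limma, with Benjamini-Hochberg adjustment over all 18194 genes, together with a difference of 1 log2 unit (2-fold) or more. In either direction 9.51% of all genes were called. The median difference of the 10 was 3.07, and that of all genes 0.01. The stages stand in as replicates here, so the spread includes development within each class. In the same comparison 6 of 10 hepatocyte markers were called higher and 9 of 12 erythroid markers lower in postnatal pools, and their part in the result was not tested.

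The uptake carriers and Slc27a5 had the largest differences among the 10. Slco1b2 averaged 10.9 ± 0.93 in postnatal pools and 5.38 ± 1.71 in fetal pools (SD, n = 6 and 8), a difference of 5.55 ± 0.73 (SE), 47.0-fold (limma adjusted p = 0.000465). Slc10a1 averaged 12.1 ± 0.28 in postnatal and 7.44 ± 2.38 in fetal pools, a difference of 4.64 ± 0.92 (adjusted p = 0.00432). The small postnatal and wide fetal spread of Slc10a1 reflect the flat and the climbing stretch of its course. The exporter Abcb11 was 8.66-fold higher in postnatal pools (3.11 ± 0.59). Among conjugation genes Slc27a5 was 25.0-fold higher (4.64 ± 0.74), while Baat, at 7.27 ± 0.80 in postnatal and 6.47 ± 0.14 in fetal pools, differed by 0.80 ± 0.27 (adjusted p = 0.0480), under the threshold of 1 log2 unit.

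Among synthesis genes Cyp8b1 was 9.71-fold higher in postnatal pools (3.28 ± 0.52), Cyp27a1 8.14-fold (3.02 ± 0.63) and Cyp7a1 3.39-fold. Cyp7a1 averaged 9.22 ± 0.90 in postnatal pools and 7.46 ± 0.90 in fetal pools, a difference of 1.76 ± 0.45 (limma adjusted p = 0.0151). The receptor Nr1h4 was higher by 2.50 ± 0.38 (adjusted p = 0.000894), and Nr0b2 by 1.55 ± 0.22 (adjusted p = 0.000605). Nr1h4 and Nr0b2 were the 2 of 10 genes whose postnatal pools all lay above all fetal pools, where 2.52% of all genes did so and 4.09% had no overlap in either direction. The overlap of the others came largely from E18.5: without that pool 8 of 10 did not overlap, all but Cyp7a1 and Baat, and 11.5% of all genes did not. The E18.5 pool is the one with high muscle markers, and its omission left all 9 calls in place, with Cyp7a1 at 2.04 and Slco1b2 at 6.12.

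In the fetal course a line fitted through the 8 pools asked whether a gene rose with age. Of the 10 genes 8 rose and 0 fell, where 4.4% of all genes rose and 12% fell, and the median fitted change from E11.5 to E18.5 was 2.63 for the 10 and 0.04 for all genes. Slc10a1 rose most, by 6.14 ± 1.03 log2 units (SE, 8 pools; limma adjusted p = 0.00419), followed by Slc27a5 (4.39 ± 0.61), Slco1b2 (3.72 ± 1.13), Abcb11 (3.41 ± 0.59), Cyp8b1 (2.65 ± 0.66), Cyp27a1 (2.61 ± 0.62), Nr1h4 (2.32 ± 0.34) and Cyp7a1 (2.16 ± 0.49). The values of Baat and Nr0b2 were both 0.36, with errors of 0.09 and 0.12, and neither reached 1 log2 unit. The line summarises curves that steepen toward E18.5. Without E18.5 the line through the remaining pools, extended to E18.5, gave smaller changes from E11.5. They were 1.55 for Cyp8b1, which was then not called (limma adjusted p = 0.0504), 1.59 for Slco1b2, 1.48 for Cyp27a1 and 1.30 for Cyp7a1. Slco1b2 (adjusted p = 0.0408) also lost its call when E17.5 or any single pool from E12.5 to E15.5 was left out, with values of 3.65 to 4.03. The scaling moved the share of rises among all calls, which was 26.9% as deposited, 41.5% after quantile normalisation and 64.4% when the arrays were set to an equal mean of 17 housekeeping genes, which shifted the median of all genes to 0.48. The 10 genes gave 8 rises under each of these scalings. In the same fit 9 of 10 hepatocyte markers (median 2.27) and 7 of 7 macrophage markers (median 2.08) rose, and their part in the result was not tested.

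After birth no steady trend was called. A line over log2(day + 1) from Day0 to 18 weeks gave 0 of 10 genes and 0 of 18194 past the threshold by limma (0%), while 2 of the 10 and 2540 of all genes (14.0%) had an unadjusted p under 0.05. The 2 were the conjugation genes, Slc27a5 with a fitted change of 2.92 ± 0.70 (adjusted p = 0.182) and Baat with 2.09 ± 0.46 (adjusted p = 0.178). Cyp27a1 had a fitted change of 2.85 ± 1.26 and Slco1b2 of 1.76 ± 0.89. The lowest values were those of Nr1h4 (0.56 ± 0.57), Slc10a1 (0.45 ± 0.31) and Cyp8b1 (0.35 ± 1.06). In data simulated for this fit, limma found 1% of the 2-fold and 51% of the 4-fold changes at adjusted p under 0.05, with no fold threshold. Thus 2-fold changes were hardly detectable in this fit.

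Steps between neighbouring stages were tested on the arrays, with the spread taken from technical repeats. Such tests compare 2 pools and leave out the variation between animals, and they do not show what other pools of these ages would give. Over the 13 steps the 10 genes gave 29 calls, 24 higher and 5 lower. The step to E12.5 gave none, where 1.71% of all genes were called higher and 1.04% lower, and neither did the steps to E13.5 (0.187% and 0.852%), E14.5 (0.0385% and 0.0055%) and E16.5 (0.187% and 0.0495%).

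At E15.5 against E14.5, 3 of 10 genes were higher (1.28% of all genes were, and 1.17% lower), namely Slc27a5 by 1.62 ± 0.21, Slc10a1 by 1.59 ± 0.24 and Abcb11 by 1.10 ± 0.22 (limma, SE). The mean of the hepatocyte markers differed in the same step, at 12.2 at E15.5 and 10.7 at E14.5, and its part in the result was not tested. At E17.5 against E16.5 the higher genes were Slc10a1 by 2.07 ± 0.24, Slco1b2 by 1.25 ± 0.24 and Cyp8b1 by 1.22 ± 0.24 (0.709% of all genes, with 0.0385% lower). The calls of Slco1b2 and Cyp8b1 were lost without any 1 of the 4 arrays of E16.5 and E17.5, at values of 1.16 to 1.33.

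The step to E18.5 gave the most calls. At E18.5 against E17.5, 8 of 10 genes were higher, all but Baat and Nr0b2, where 2.32% of all genes were and 1.8% were lower. Slco1b2 differed by 3.20 ± 0.29 (9.20-fold, limma adjusted p = 6.3e-06), Slc27a5 by 1.97 ± 0.26, Cyp27a1 by 1.79 ± 0.31, Slc10a1 by 1.71 ± 0.29, Abcb11 by 1.55 ± 0.27, Cyp7a1 by 1.51 ± 0.30, Cyp8b1 by 1.45 ± 0.30 and Nr1h4 by 1.08 ± 0.20. Nr1h4 was 0.90 and not called at equal housekeeping levels. E18.5 is a single array with muscle markers at 7.24, against 5.16 at E17.5, and the part of this in the result was not tested. The hepatocyte markers averaged 13.2 at E18.5 and 12.8 at E17.5. At Day0, where the muscle markers were at 5.13, Slco1b2 stood at 9.10, Cyp7a1 at 9.11 and Slc10a1 at 11.68, all above their E17.5 means of 6.16, 7.89 and 10.09.

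At birth 2 of the 10 genes were called. At Day0 against E18.5, Cyp8b1 was higher by 1.27 ± 0.30 (3.63% of all genes were higher) and Abcb11 lower, at -1.17 ± 0.27 (2.25% lower), and the other 8 were not called. Each of these calls rested on 1 of the Day0 arrays: Cyp8b1 was 0.91 without Day0 replicate 1, and Abcb11 was -0.91 without Day0 replicate 2. Of 54 other bile acid genes 8 were higher and 6 lower in this step. The E18.5 side is the single array with muscle markers at 7.24, against 5.13 at Day0, and the part of this was not tested. At Day3 against Day0 the genes went in both directions. Higher were the transport genes Slco1b2 by 1.93 ± 0.24 and Abcb11 by 1.83 ± 0.22 and the activation gene Slc27a5 by 1.21 ± 0.21 (1.81% of all genes were higher). The 3 synthesis genes were lower, Cyp27a1 at -1.73 ± 0.26, Cyp7a1 at -1.46 ± 0.24 and Cyp8b1 at -1.19 ± 0.24 (1.1% of all genes were lower). The Day3 and Day0 arrays did not overlap for these 6 genes: Cyp27a1, for example, was at 8.26 and 7.63 at Day3 and at 10.10 and 9.26 at Day0. The erythroid markers averaged 9.71 at Day3 and 9.70 at Day0 and the hepatocyte markers 13.2 and 13.1. The macrophage markers averaged 9.28 at Day3 and 8.40 at Day0, and a list of 12 clock genes 6.13 and 6.36. This mean covers clock genes that went different ways. Nr1d2 was at 6.72 at Day3 and 7.93 at Day0, Per1 at 6.91 and 7.83, and Arntl at 7.26 and 7.05. The part of these differences in the step was not tested, nor was that of the hour of collection, which is not given. Cyp8b1 was not called without Day0 replicate 1 (-0.84) or Day3 replicate 2 (-0.99), and Slc27a5 not without Day0 replicate 2 (0.95) or Day3 replicate 1 (0.96). Nr0b2 differed by 0.86 in this step, under the threshold, and the carrier Slc10a1 by 0.27, not called. The direction of the 3 synthesis genes was not that of the other genes listed under synthesis. Of those 17, 5 were higher and 1 lower (median 0.22), and of 18 others listed under transport 2 were higher and 0 lower.

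At Day7 against Day3, Cyp8b1 was higher by 1.80 ± 0.30, Cyp7a1 by 1.43 ± 0.30, Nr1h4 by 1.18 ± 0.20 and Slc27a5 by 1.05 ± 0.26 (3.32% of all genes were higher and 2.84% lower). Cyp27a1, at 8.59 at Day7 and 7.95 at Day3, differed by 0.64 ± 0.31 and was not called. The erythroid markers stood at 7.49 at Day7 and at 9.71 at Day3, and their part in the result was not tested. Without Day3 replicate 2 the calls of Nr1h4 (0.9998) and Slc27a5 (0.81) were lost, as they were after quantile normalisation (0.90 and 0.57), and Slc27a5 was 0.90 at equal housekeeping levels. Later steps gave 1 call each: Cyp8b1 was lower at Day14 against Day7 (-1.94 ± 0.34, 4.57% of all genes lower and 1.16% higher), Cyp27a1 was higher at Day21 against Day14 (1.33 ± 0.31, 3.03% higher and 0.528% lower), and Cyp8b1 was higher in the adult pool against Day21 (1.46 ± 0.24, 0.61% higher and 1.2% lower). Cyp8b1 therefore accounted for 7 of the 29 calls. The 12 clock genes averaged 6.47 in the adult pool and 7.02 at Day21, and the clock output gene Dbp was at 6.22 in the adult pool and at 9.34 at Day21. The hour of collection is not given in the sources used here, and its part in these steps was not tested.

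**Figure D3:**
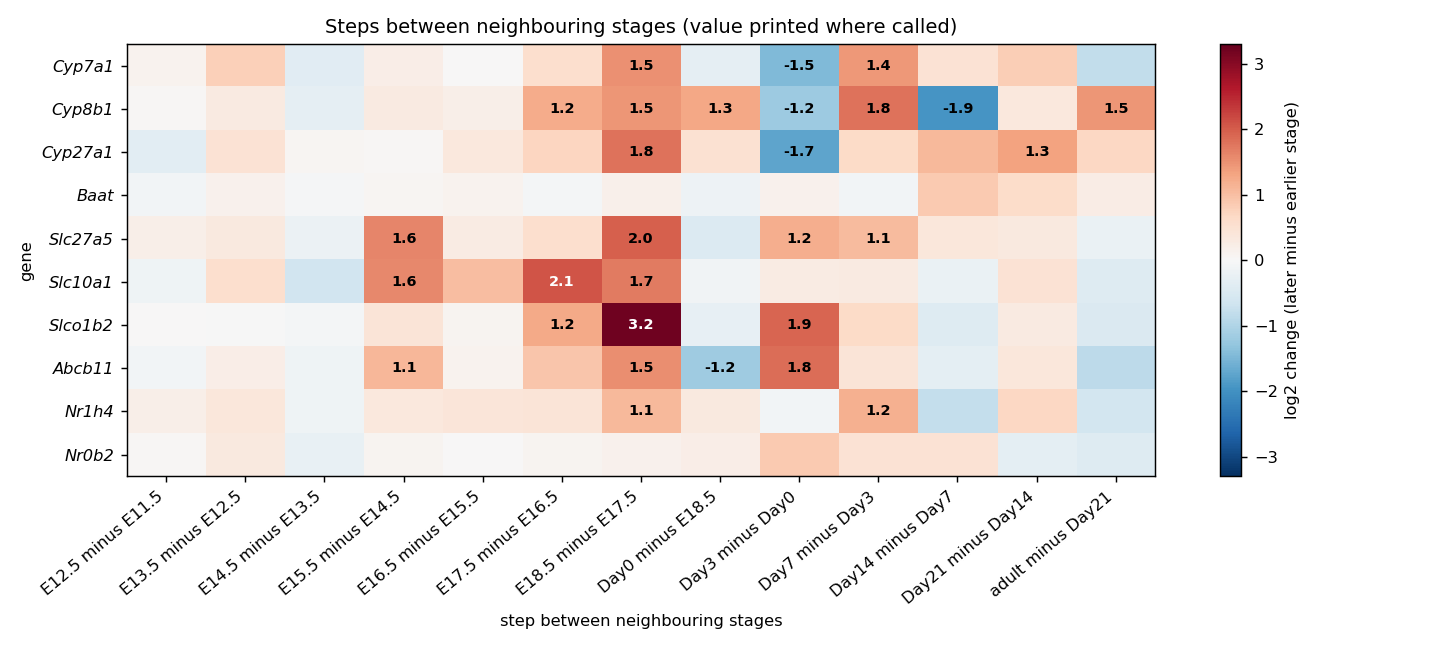
Change between each stage and the one before it (log2 units, colour) for the 10 genes (rows) over the 13 steps (columns), with the value printed in the called steps. The step from E17.5 to E18.5 holds 8 calls, and the step from Day0 to Day3 holds 3 lower synthesis genes beside 3 higher genes.

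Genes with several probe sets allowed the courses to be read again. For Slc10a1 a further set correlated with the one used at r = 0.997 over the 14 stage means and differed between postnatal and fetal pools by 4.62. The second set of Cyp7a1 (r = 0.954) gave 2.58 for postnatal minus fetal pools and showed the low Day3 level more strongly, with -2.89 ± 0.15 at Day3 against Day0. Its levels were 5.51 at Day3 and 8.40 at Day0, and its Day21 level was below those of Day0, Day14 and the adult pool. Of the 5 sets of Slco1b2, 3 moved together (5.55, 5.62 and 4.69) and 2 were flat (-0.02 and 0.19). The later course also differed between sets of this gene, one of which was at 11.46 at Day14 and 9.62 at Day21. In addition, a second set of Cyp27a1 stayed at 3.91 to 4.13 at all stages. With all 45101 sets fitted together, the fetal rise of Slco1b2 had an adjusted p of 0.0523 by limma and was not called.

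The calls of Baat depended on the set. Its other set was at 4.67 to 5.93 in the fetal pools, 5.51 at Day0, 5.85 at Day3, 6.16 at Day7, 8.32 at Day14, 9.66 at Day21 and 9.97 in the adult pool. It differed by 2.53 ± 0.67 between postnatal and fetal pools (limma adjusted p = 0.0237 over all sets) and rose by 1.05 ± 0.22 in fetal life, both called, where the set used gave 0.80 and 0.36. The 2 sets correlated at r = 0.986 and shared the late climb from Day7 to Day21. With the mean of all sets of a gene, Baat was higher in postnatal pools by 1.67 and was called, which made 10 of 10.

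**Figure D4:**
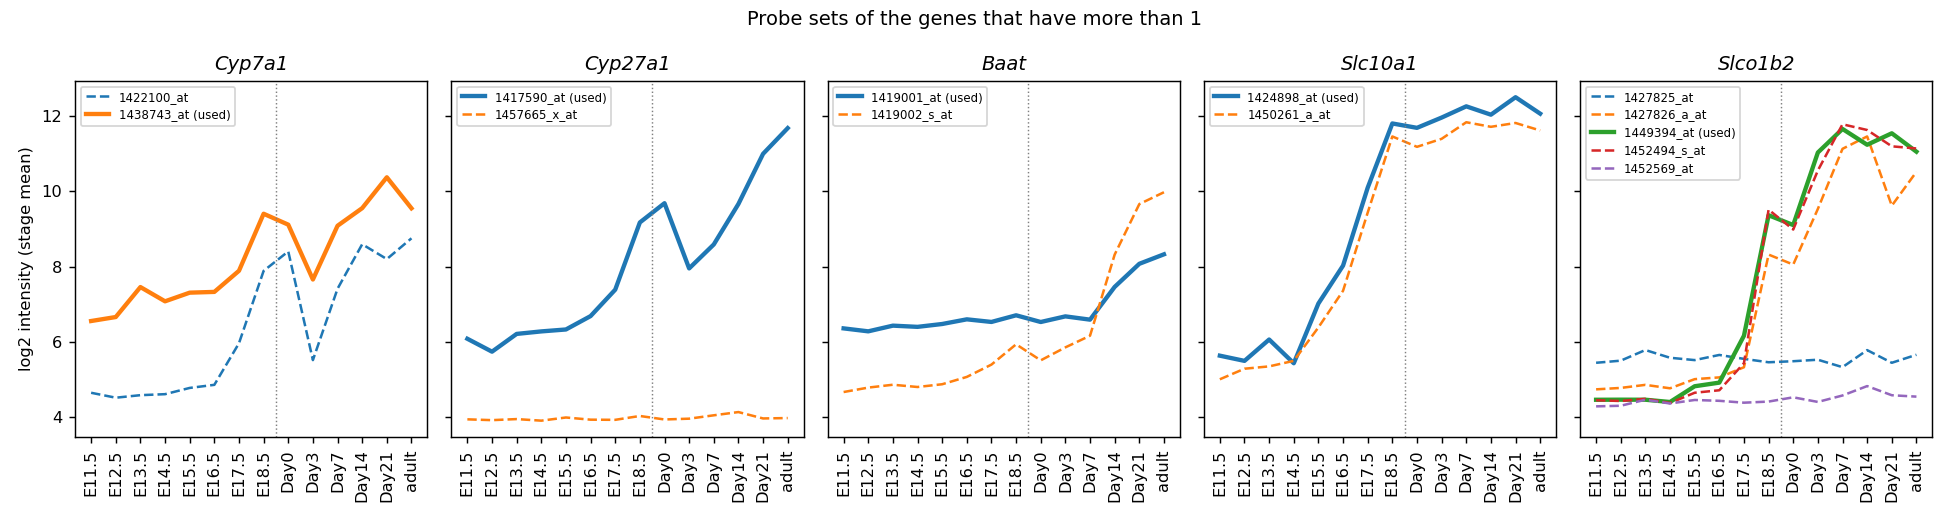
Stage means (log2 intensity, vertical axis) of all probe sets of the genes with more than 1 set, along the 14 stages (horizontal axis), with the set used for the gene drawn as the heavier line. Both sets of Baat climb after Day7, and 2 of the 5 sets of Slco1b2 stay flat.

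The genes most like each member in course were listed by Pearson correlation over the 14 stage means, among 5103 genes that reached 8 log2 units and varied by at least 1. These stage means share pools and a common developmental course, so high values are frequent and are given as a description. The nearest was Klf15 for Cyp7a1 (r = 0.973), Creb3l3 for Cyp8b1 (0.970), Hspb8 for Cyp27a1 (0.982), Abcc3 for Baat (0.985) and F9 for Slc27a5 (0.995). It was Rdh7 for Slc10a1 (0.996), Asgr1 for Slco1b2 (0.995), Tmprss6 for Abcb11 (0.988), Ppara for Nr1h4 (0.989) and F7 for Nr0b2 (0.978). Among the 45 pairs of the 10 genes themselves r ran from 0.586, between Cyp8b1 and Baat, to 0.982, with a median of 0.888.

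Other genes listed for bile acid metabolism, 54 measured of 56, were counted in the same comparisons. In postnatal pools 31 of 54 were higher and 0 lower (median 1.28): 13 of 17 listed under synthesis, 8 of 18 under transport and 10 of 19 under regulators. Listed under synthesis were the reductases Akr1c6 (4.41 ± 1.05, SE) and Akr1c14 (4.02 ± 0.99), Cyp2c70 (3.66 ± 0.89), which makes muricholic acids in mice, and the activating enzyme Slc27a2 (3.13 ± 0.44). The lyase Hacl1 (3.92 ± 0.64) was also on that list, and its part in bile acid synthesis was not tested. Among transport genes were the sterol half-transporter Abcg5 (3.52 ± 0.43), the epoxide hydrolase Ephx1 (3.20 ± 0.45) and the canalicular conjugate pump Abcc2 (2.16 ± 0.25). Among regulators were the nuclear receptors Nr1i3 (2.59 ± 0.19) and Ppara (1.76 ± 0.31) and the coactivator Ppargc1a (1.69 ± 0.42). The phospholipid flippase Abcb4 differed by 0.98 ± 0.15, and the FGF receptor Fgfr4 and its partner Klb, through which the gut hormone FGF15 restrains Cyp7a1, by -0.06 ± 0.09 and 0.85 ± 0.15, none of them called.

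In the fetal course 16 of the 54 rose and 0 fell, 11 of 17 listed under synthesis, 4 of 18 under transport and 1 of 19 under regulators. Cyp2c70 rose by 5.64 ± 0.94, Acox2, the oxidase that shortens the side chain, by 4.01 ± 0.48 and Cyp39a1, an oxysterol 7-alpha-hydroxylase, by 3.76 ± 0.57 (limma). Ppara (1.85) was the regulator that rose. This count depended on the scaling, with 29 of 54 at equal housekeeping levels. In the postnatal course 0 of 54 were called.

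Several of these genes had larger changes in a single step than Slco1b2 at E18.5. Akr1c6 was lower at Day0 against E18.5 (-4.04 ± 0.28) and higher at Day3 against Day0 (4.89 ± 0.23), with levels of 10.5 at E18.5, 6.48 at Day0 and 11.4 at Day3. Akr1c14 followed the same path (-2.83 ± 0.20 and 4.13 ± 0.16). Ppargc1a ran the opposite way, higher at Day0 against E18.5 (2.62 ± 0.16) and lower at Day3 against Day0 (-2.58 ± 0.13). Akr1c6 and Akr1c14 belong to a family of related genes, and whether their probes detect each other was not tested. In the adult pool against Day21 the enzyme Cyp7b1 of the alternative route was higher by 5.09 ± 0.19 and the organic anion carrier Slco1a1 by 5.08 ± 0.17. Cyp7b1 was at 10.4 in the adult pool and at most 5.32 in every other pool, and Slco1a1 at 10.9 and at most 5.96. Both are known to be higher in adult male than in adult female mouse liver. Cyp39a1 was lower in the adult pool against Day21 (-2.87 ± 0.24), lower at Day7 against Day3 (-2.94 ± 0.30) and higher at Day14 against Day7 (3.33 ± 0.34).

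**Figure D5:**
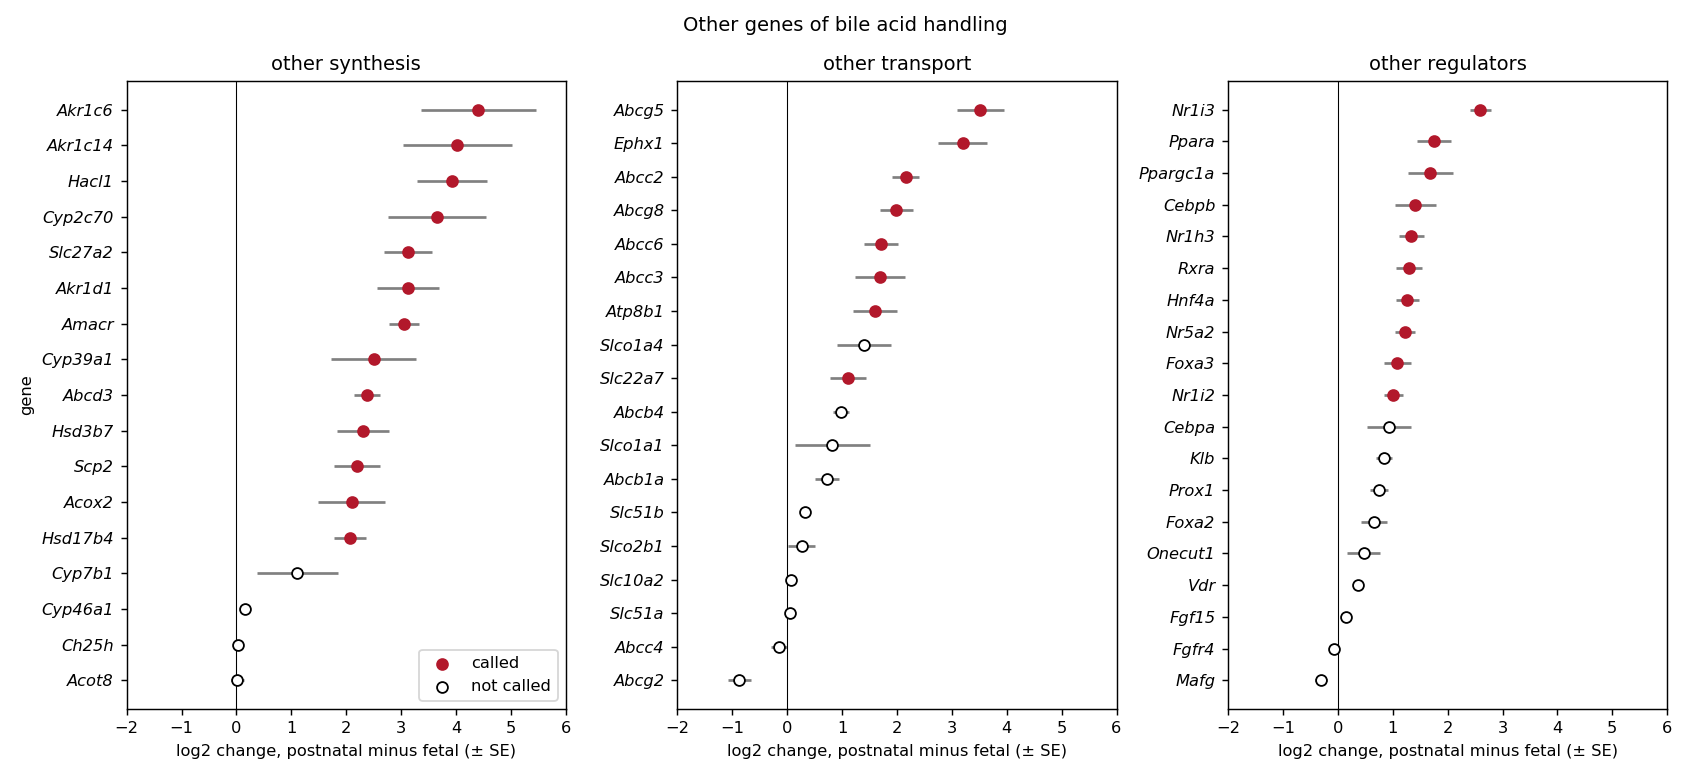
Postnatal minus fetal difference (log2 units, horizontal axis, bars are SE) of the 54 other bile acid genes in 3 panels by role, sorted by size; filled points are called and open points are not. All 31 called genes are higher in postnatal pools and so, by the rule for a call, lie to the right of 1. None of the 54 lies to the left of -1.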

How the data were processed

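RNA of pooled whole livers was hybridised to 25 Affymetrix arrays, and the values used are intensities on a linear scale that the authors deposited, 12.6 to 25175. They were made with RMA per the submitters' processing notes, with no version given. Array means differed (140.5 to 210.4), so the step that equalises arrays is uncertain and other scalings were tried. The log2 of each value was taken, since log2 values had been planned for. Among 45101 probe sets, 34958 were annotated with a single symbol, 932 with several and 9211 with none. The values come without a genome build. Promoters came from RefSeq, GRCm38.p6.

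Repeat arrays were averaged per pool, except for neighbouring stages, where a mean for each stage was fitted to the 25 arrays. Fits used limma 3.58.1 in R 4.3.3, with version 1.17.8 of data.table, with calls as defined in the text. In simulated data of 18194 genes with 200 changed, the fits found 72% of the 2-fold and 97% of the 4-fold changes for postnatal against fetal pools, 53% and 82% in the fetal course, and 87% and 98% between neighbouring stages, with 3.14% to 7.65% false. Finds were counted without the fold threshold, and simulated pools varied independently of age. For neighbouring stages no variation between pools was added and only Day0 against E18.5 was scored. These rates are therefore not those of the calls. The 10 genes were named in full. The 2 nearest genes in course were sought for each, and of the other bile acid genes up to 5 called per direction and 3 others were eligible per comparison. Members and lists were chosen with earlier results of these data known. Precision is limited by how few pools and arrays there are, and array intensities give no counts. Alternatives covered scaling, probe sets, dim genes, variance model, time axes, a replicate term and the omission of pools or arrays; the omission of the stages with 1 array and the fit of every probe set were added after seeing the data.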

Additional observations from a re-analysis of the deposited data

Results flagged for a closer look

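Single pools stood far from the rest of their class in 4 of 20 groups examined. The rule assumes values without an order, whereas these pools follow age and are shared between genes, so the count was not set against chance. Cyp7a1 had 9.40 at E18.5, with the next fetal pool at 7.89, a gap that took 0.532 of the fetal range. Slco1b2 had 9.36 at E18.5, with the next fetal pool at 6.16 (0.645 of the range). Both are in the pool with 1 array and muscle markers at 7.24. After birth Slco1b2 was at 9.10 at Day0, against 11.0 in the next lowest postnatal pool (0.755 of the range), and Abcb11 was at 8.001 at Day0, against 9.46 (0.627 of the range). E18.5 and Day0 are neighbours in age, so the high fetal and low postnatal values of Slco1b2 lie side by side on its course.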

How the results depend on the processing

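Among the 10 genes 9 or 10 were called between postnatal and fetal pools, 7 to 9 in the fetal course, 0 in the postnatal course and 25 (mean of all probe sets) to 39 (no fold threshold) times between neighbouring stages. Leaving out 1 pool or array gave 9, 7 to 8, 0 and 27 to 33. For the other bile acid genes these omissions gave 27 to 32 of 54 between postnatal and fetal pools and 14 to 21 in the fetal course, where 29 were called at equal housekeeping levels and 27 with no fold threshold. In the postnatal course the direction reversed for Cyp8b1 (-0.31) and Slc10a1 (-0.18) with the first array of each stage, for Abcb11 (-0.69) and Slco1b2 (-0.22) without the Day0 pool, and for Cyp8b1 (-1.36) without the adult pool. Over all omissions of 1 pool these values ran to 3.40 for Abcb11, 3.67 for Slco1b2 and 1.51 for Cyp8b1; none of these was called, and the cause was not tested. With the replicate number as a block 31 neighbouring steps were called in place of 29. Deviations of arrays with the same number correlated at -0.573 to 0.730 over 55 pairs of stages (median 0.398, 38 over 0.1). Most pairs were thus over 0.1, but not every pair, and no label ties a number to a shared batch. The main fits left the number out, and beyond the block fit the part of a shared replicate effect was not tested. The single arrays of E18.5, Day7 and Day14 all carry number 1, so their steps against stages with 2 arrays set that number against both. Stages are single pools without animal replicates, 3 of them are single arrays, and 2-fold changes in the postnatal course were hardly detectable.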
